A study of Homo sapiens with 2 samples.

Results

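The genes of the 4 human HOX clusters and their antisense RNAs were described from RNA crosslinked to U2AF2 in HEL cells. A gene was included if its GENCODE 29 symbol was that of a protein-coding HOXA, HOXB, HOXC or HOXD gene, if its symbol was that of a HOX antisense RNA, or if it was HOTAIR, HOTAIRM1 or HOTTIP. This gave 55 of the 58347 genes in the table, of which 16 were antisense RNAs and 39 were protein-coding genes. U2AF2 is the larger part of the U2AF heterodimer and binds the pyrimidine-rich stretch just before 3' splice sites. Both libraries came from eCLIP, which crosslinks proteins to the RNA they touch, pulls down 1 protein with its antibody and sequences the RNA that comes along. They were biological replicates of HEL, an established human erythroleukemia line, with no treatment named in their titles. HEL was taken from the source name, since the cell line tag reads U2AF2. The libraries formed 1 group, and input or control libraries were not analysed here, so no value is an enrichment and the amount of an RNA cannot be told apart from how much U2AF2 it binds.

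HOX genes encode homeodomain transcription factors that give cells their position along the body axis. They lie in clusters in which the paralogue groups follow each other in a fixed order, and genes of the low-numbered groups act toward the head and those of the high-numbered groups toward the tail. Blood progenitors use mainly HOXA and HOXB genes, and several HOXA genes are known for their part in leukaemia. Within each cluster the protein-coding genes are read from the same strand, and many long non-coding RNAs are read from the other one.

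The gene counts came to 995428 in replicate 1 and 1350116 in replicate 2. Most reads lay outside them. Of all gene counts and tallied reads together, 62.7% and 63.6% matched no gene feature in replicates 1 and 2. A further 22.1% and 20.7% mapped to several places, and 13.5% and 14.0% were unmapped. The smallest tally, that of ambiguous reads, held 17816 and 23938, or 0.0307% and 0.0301%. A count of 0 allowed up to 2.98 CPM (a gene's count scaled to a library of 1000000 counts) in replicate 1 and 2.25 CPM in replicate 2, taken as 3 counts, which covers counting error only. Of the markers of the line's own lineages, 3 of 10 erythroid genes (ALAS2 and TAL1 among them) and 2 of 5 megakaryocyte genes (GP1BA and FLI1) reached at least 10 counts in each of the libraries, and the platelet factor gene PF4 held 0. The same minimum was met by 24.8% of all protein-coding genes. Summed levels were 127 CPM in each library for the erythroid markers and 364 and 359 CPM for the megakaryocyte markers. GP1BA alone had a mean of 310 CPM. Among the listed genes below the minimum, KLF1 held 0 and 4 counts, TFRC and ITGA2B each 0 and 2, and HBG1 and GP9 each 0 and 1. Markers of monocytes and granulocytes, T cells, B cells, neurons and hepatocytes (17 genes) had no member above that minimum, with summed levels between 0.992 and 10.5 CPM per list and library, and SPI1, CD14, CEBPA, LYZ, CD3D, SNAP25, STMN2 and ALB at 0 counts. The sources used here do not say whether the counting used strand. For every gene with a partner on the other strand it is therefore uncertain which of them the reads came from. What the small ambiguous tally says about the strand setting was not tested. Reads that map to several places are outside the counts, which touches stretches shared between HOX paralogues.

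The 55 genes held 867 counts in replicate 1 and 1201 in replicate 2, or 0.0880% ± 0.00131 (SD, n = 2) of all gene counts. A few loci carried most of them. HOXB3, HOXB-AS1, HOXA11 and HOXA10-AS together held 64.6% ± 2.78 (SD, n = 2) of the HOX counts, and HOXB2 brought this to 70.4% ± 1.18. A minimum of 10 counts, set for each library, was met by 15 of the 55 genes. These were 9 of 16 antisense RNAs and 6 of 39 protein-coding genes, or 56.3% and 15.4%. The same minimum was met by 37.6% of all genes of the GENCODE class antisense and by 24.8% of all protein-coding genes, so by this share the antisense RNAs of the clusters lay above their class and the HOX protein-coding genes below theirs. Densities per kb of exon, given with the antisense comparison, did not follow the same order. The 33 remaining protein-coding genes held between 0 and 9 counts per library, 45 and 71 in total, and HOXA7, HOXC5, HOXC11, HOXC13, HOXD4 and HOXD12 held 0 in both. No test was made of these shares, since genes are not replicates. HOXC-AS2 and HOXC-AS3, antisense by name, are in the class processed transcript in this annotation. Both met the minimum, so they are among the 9 of 16 but outside the class behind the 37.6%.

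**Figure D1:**
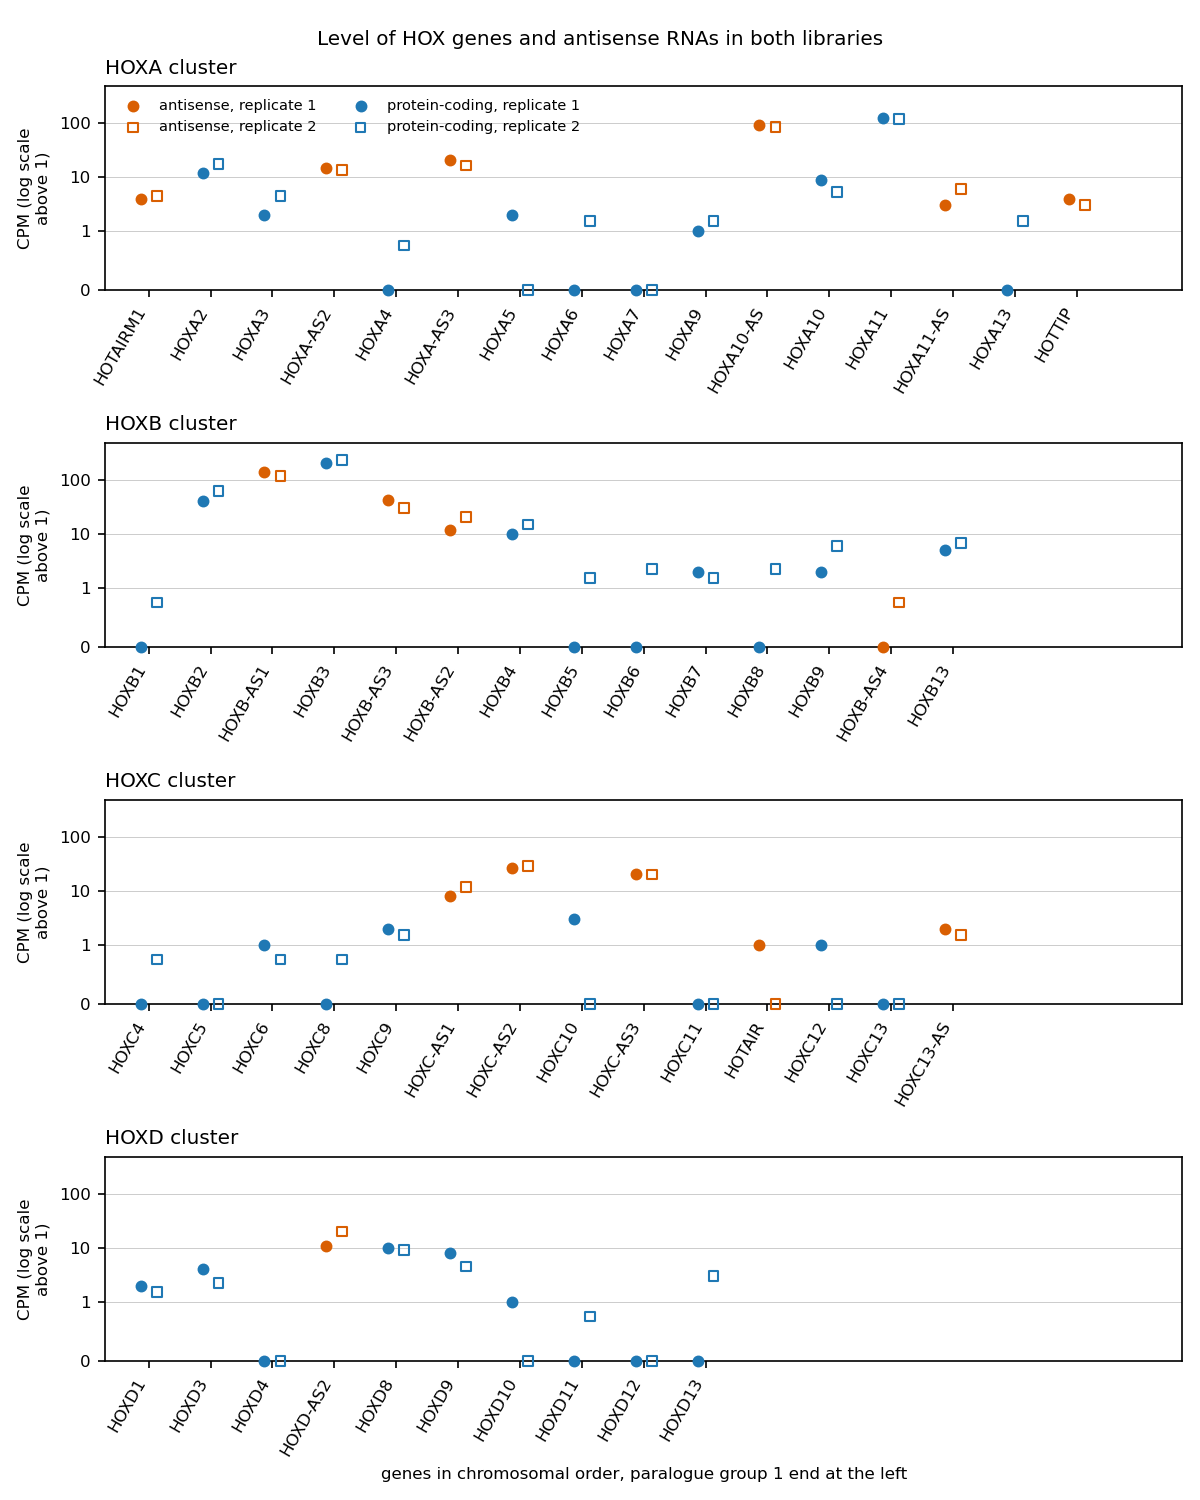
Level of the HOX genes and antisense RNAs in CPM (1 gene is not shown) (vertical axis, linear from 0 to 1 and logarithmic above), with 1 panel per cluster and genes in chromosomal order from the paralogue group 1 end. Filled circles are replicate 1 and open squares replicate 2, orange for antisense RNAs and blue for protein-coding genes, and the levels above 50 CPM in both libraries belong to HOXB-AS1, HOXA10-AS, HOXB3 and HOXA11.

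**Figure D2:**
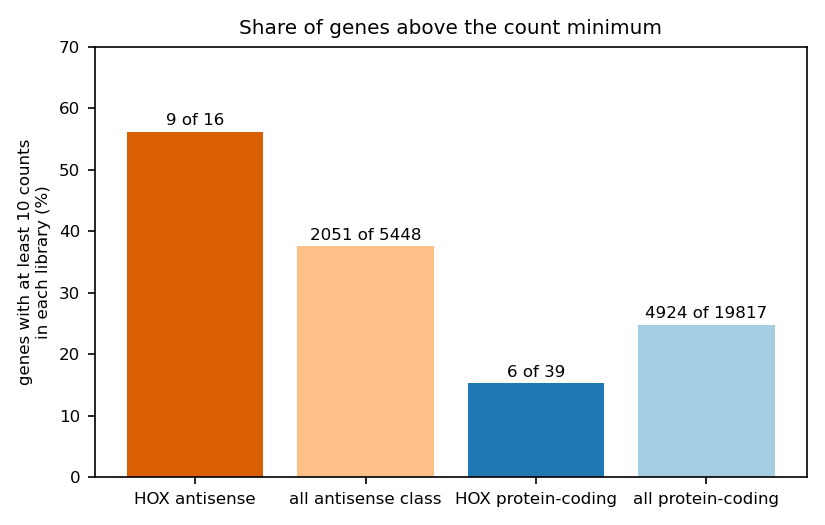
Share of genes that met the minimum of 10 counts per library (vertical axis, percent), for the HOX antisense RNAs, all genes of the antisense class, the HOX protein-coding genes and all protein-coding genes. Bars start at 0, and the number of genes stands above each bar. The HOX antisense bar is the highest and the HOX protein-coding bar the lowest.

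The HOXB2 to HOXB3 locus on chromosome 17 held the most counts. HOXB3, a group 3 gene active in the hindbrain and in blood progenitors, spans 48548870 to 48604912 on the minus strand (GRCh38) and held 209 and 318 counts in replicates 1 and 2. Its level was 223 CPM ± 22.1 (SD, n = 2), the highest of the 55 genes. HOXB-AS1, on the plus strand from 48543551 to 48551250, held 143 and 160 counts, at 131 CPM ± 15.4 (SD, n = 2). Both replicates thus placed HOXB3 above its antisense partner by level. Per kb of merged exons the order turned round, since HOXB-AS1 has 1559 exonic bases and HOXB3 has 7456. HOXB-AS1 reached 84.0 CPM per kb ± 9.90, the highest density of the 55 genes, against 29.9 CPM per kb ± 2.96 for HOXB3 (SD, n = 2 each). HOXB2, the next gene toward group 1 and a hindbrain patterning gene in the mouse, held 41 and 84 counts, at 51.8 CPM ± 15.8 (SD, n = 2). HOXB2, HOXB3 and HOXB-AS1 together held 46.1% ± 1.04 of the HOX counts.

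Further along the cluster, HOXB-AS3, which starts inside the last exon of HOXB3 on the other strand and runs past HOXB4, HOXB5 and HOXB6, held 43 and 41 counts, at 36.7 CPM ± 8.41 (SD, n = 2). HOXB-AS2, which lies wholly across HOXB3 introns, held 12 and 28 counts. HOXB4, known for expanding blood stem cells when forced on, held 10 and 20 counts. All 3 lay far under HOXB3 in both replicates. From HOXB5 to HOXB13 no gene reached 10 counts in either library. HOXB5 held 0 and 2 counts, HOXB6 0 and 3, and HOXB13, a gene of prostate and tail tissue, 5 and 9. HOXB-AS4, beside HOXB9, held 0 and 1 counts, as did HOXB1 at the other end of the cluster.

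In the HOXA cluster on chromosome 7 the counts sat at the group 10 and 11 end. HOXA11, known for limb, kidney and uterus development, spans 27181510 to 27185223 on the minus strand and held 129 and 160 counts, at 124 CPM ± 5.61 (SD, n = 2). HOXA10-AS, on the plus strand from 27168619 to 27171915, held 96 and 114 counts, at 90.4 CPM ± 6.86 (SD, n = 2). These 2 genes stood close to each other per kb of merged exons, at 54.6 CPM per kb ± 4.15 for HOXA10-AS and 53.7 CPM per kb ± 2.43 for HOXA11 (SD, n = 2 each), a difference within the spread between replicates. Their overlapping partners held far fewer counts. HOXA11-AS, whose longest exon faces the first exon of HOXA11, held 3 and 8 counts. HOXA10 held 9 and 7 counts and HOXA9 held 1 and 2, although both are among the HOX genes best known in myeloid leukaemia.

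At the group 1 end of HOXA the levels were lower. HOXA2, a gene of the hindbrain and second pharyngeal arch, held 12 and 23 counts, at 14.6 CPM ± 3.78 (SD, n = 2), and has no annotated gene on the opposite strand over its exons. It was the only one of 14 such protein-coding HOX genes to meet the minimum. HOXA-AS3 held 21 and 22 counts and HOXA-AS2 held 15 and 18. HOTAIRM1, an RNA linked to myeloid maturation, held 4 and 6 counts, and HOTTIP, at the other end of the cluster beside HOXA13, held 4 and 4. Both were under the minimum in each library. HOXA3, HOXA4, HOXA5, HOXA6, HOXA7 and HOXA13 held between 0 and 6 counts per library.

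In the HOXC cluster on chromosome 12 the antisense RNAs carried nearly all counts. HOXC-AS2 held 27 and 39 counts, at 28.0 CPM ± 1.75 (SD, n = 2), and HOXC-AS3 held 21 and 27, at 20.5 CPM ± 0.408 (SD, n = 2). HOXC-AS1 held 8 and 16 counts, just under the minimum in replicate 1. The 9 protein-coding HOXC genes together held 7 and 5 counts, and none had more than 3 in a library. HOTAIR, the HOXC antisense RNA studied for its effect on HOXD genes, held 1 and 0 counts, and HOXC13-AS held 2 and 2.

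The HOXD cluster on chromosome 2 held the fewest counts, 36 and 55, beside 66 and 89 for HOXC. Its protein-coding genes held more than those of HOXC, 25 and 28 counts beside 7 and 5. HOXD-AS2, the antisense RNA of this cluster that the symbol rule took in, held 11 and 27 counts, at 15.6 CPM ± 6.61 (SD, n = 2). HOXD8, whose exons lie wholly inside the HOXD-AS2 gene on the other strand, held 10 and 12 counts, and HOXD9, placed in the same way, held 8 and 6. The other 7 HOXD genes held between 0 and 4 counts per library.

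The clusters were then compared over all their members, per kb of merged exons. HOXB reached 13.8 CPM per kb ± 0.939, HOXA 5.44 ± 0.170, HOXC 2.01 ± 0.0278 and HOXD 1.81 ± 0.184 (SD, n = 2 each). The replicates gave 13.1 and 14.5 CPM per kb for HOXB, 5.56 and 5.32 for HOXA, 1.99 and 2.03 for HOXC and 1.68 and 1.94 for HOXD. HOXB, HOXA and the remaining clusters were thus apart by more than the spread between replicates, while HOXC and HOXD differed by little more than the SD of HOXD. Counted over exon bases that no other gene shares on the same strand, HOXD (2.27 CPM per kb) lay above HOXC (2.16 CPM per kb). Among members with no opposite-strand gene, HOXA (5.93 CPM per kb, HOXA2 alone) lay above HOXB (1.07 CPM per kb).

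Position within the clusters was compared over the 39 protein-coding genes. Genes of groups 1 to 4 had 8.48 CPM per kb ± 1.31, genes of groups 5 to 8 had 0.732 ± 0.139 and genes of groups 9 to 13 had 3.57 ± 0.145 (SD, n = 2 each). The 12 genes of groups 1 to 4 held 64.2% ± 3.96 of the protein-coding HOX counts, the 11 central genes 3.53% ± 0.346 and the 16 genes of groups 9 to 13 held 32.3% ± 4.31. The outer values rest on single genes, and their order depended on the measure. Per kb of gene span, groups 1 to 4 had 1.55 CPM per kb and groups 9 to 13 had 1.62, and over genes that met the minimum the values were 18.9 and 53.7 CPM per kb of exon, the second being HOXA11 alone. Without HOXB3, groups 1 to 4 held 18.2% ± 3.69 of the protein-coding HOX counts and 3.03 CPM per kb ± 0.888. HOXA11 held 129 of 161 counts of groups 9 to 13 in replicate 1 and 160 of 201 in replicate 2. Among the central genes HOXD8, at 10 and 12 counts, was the only one to meet the minimum.

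Antisense RNAs and protein-coding genes were compared cluster by cluster. The 16 antisense RNAs held 411 and 513 counts on 39.0 kb of merged exons, and the 39 protein-coding genes held 456 and 688 counts on 103.7 kb. Pooled density was 10.2 CPM per kb ± 0.415 for antisense RNAs and 4.67 CPM per kb ± 0.435 for protein-coding genes (SD, n = 2 each). Over all genes it was 40.8 CPM per kb ± 0.329 for the antisense class and 5.21 CPM per kb ± 0.118 for protein-coding genes (SD, n = 2 each), so by pooled density the HOX antisense RNAs lay below their class. The ratio, antisense over protein-coding, was 2.40 in replicate 1 and 1.99 in replicate 2. Medians over the HOX genes were further apart, at 11.3 counts per kb over both libraries for antisense RNAs and 1.17 for protein-coding genes, beside 9.17 for all genes of the antisense class and 0.913 for all protein-coding genes. By the median per kb both HOX classes lay above the same class over all genes. In counts per gene over both libraries, the median was 3 for HOX protein-coding genes and 4 for all protein-coding genes. For antisense RNAs it was 35.5 in the HOX clusters and 8 over the whole class. The order of the protein-coding genes thus depended on exon length and rests on few counts.

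The clusters differed in this ratio. It was 1.25 and 1.13 in replicates 1 and 2 for HOXA, where HOXA11 is on the coding side, and 4.47 and 3.11 for HOXB. On the antisense side of HOXA, HOXA10-AS held 96 of 143 counts in replicate 1 and 114 of 172 in replicate 2. For HOXC the ratio was 19.5 and 38.9, resting on the 7 and 5 counts of the protein-coding genes. For HOXD the ratio was 6.12 and 13.4, resting on the single RNA HOXD-AS2. The symbol rule left out HAGLR and AC009336.1, also of the antisense class in this cluster. HAGLR held 2 and 1 counts on 5110 exonic bases, and AC009336.1 held 0 and 6 on 1553. Their densities were 0.268 and 1.45 CPM per kb, beside 1.15 for the HOXD protein-coding genes. A HOXD ratio that takes them in was not computed. Among the genes the rule took in, antisense RNAs had the higher density in each cluster and each replicate. Over the 15 genes that met the minimum the pooled ratio was 0.750, below 1, with 9 antisense RNAs and 6 protein-coding genes in it, HOXB3 and HOXA11 among them.

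**Figure D3:**
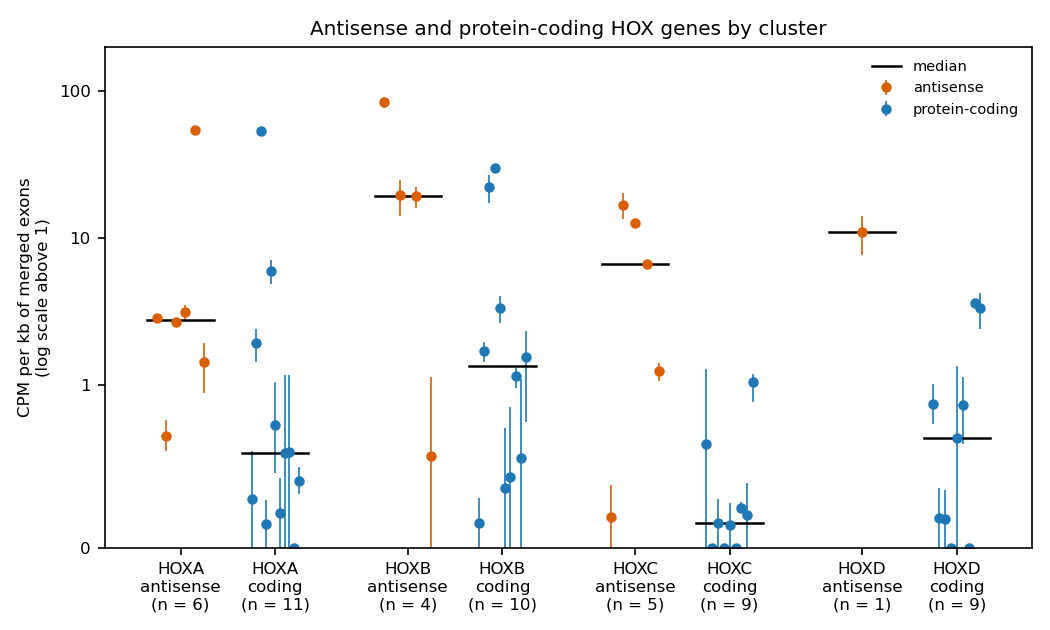
CPM per kb of merged exons (vertical axis, linear from 0 to 1 and logarithmic above) for antisense RNAs and protein-coding genes of each cluster. Points are means of 2 libraries, vertical lines join the library values, and black bars are medians over genes, higher for antisense RNAs in every cluster. HOXB-AS1 is highest at 84.0 CPM per kb.

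The overlap of each gene with the other strand was set beside its counts. An annotated gene lay opposite the exons of 25 protein-coding HOX genes, and 5 of these met the minimum, against 1 of 14 with none. Over all protein-coding genes the shares were 42.0% with an opposite-strand gene and 12.3% without. The antisense RNAs with the most counts differed in what they face. HOXB-AS1 has 443 of its 1559 exonic bases opposite HOXB3, 374 of them in HOXB3 exons. All 1654 exonic bases of HOXA10-AS lie inside the HOXA9 gene, 1232 of them in HOXA9 introns. Exons of HOXA10 lie opposite 608 of the 1654, and 1030 face an opposite-strand exon of any gene. All 2216 exonic bases of HOXC-AS2 lie inside HOXC6, 2143 of them in introns. HOXC-AS3 has 63 of its 3109 exonic bases opposite a gene, HOXC10. HOXB3 faces HOXB-AS3 over 6696 and HOXB-AS1 over 2312 of its 7456 exonic bases. Introns of these antisense RNAs cover 6619 and 1938 of them, and 393 of the 7456 face an opposite-strand exon.

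Because U2AF2 binds just before 3' splice sites, the annotated 3' splice sites that fall in exons of an opposite-strand HOX gene were read from the GENCODE 29 transcripts. Each window holds the last 27 intronic and the first 3 exonic bases of the intron's own strand, and 15 such windows lay whole in exons of 9 of the 55 genes. In another 4 genes, HOXA3, HOXA9, HOXC10 and HOXC-AS3, the last intronic base of an opposite-strand site lay in an exon but no whole window did, and these count here as genes without a window. The windows shown are from the exons of HOXB3 and HOXB-AS1, the leading pair, and from those of HOXA10, HOXA11-AS, HOXB6 and HOXD3, which held few counts. Windows of other genes, among them HOXA-AS2 and HOXA-AS3, which met the minimum, are not printed. Capitals mark the AG that ends the intron.
HOXB-AS1 and HOXB-AS3 site in HOXB3, chr17:48549862-48549891, plus strand: tgaaatgtgttttcttattttttaaAGgat
HOXB-AS1 site in HOXB3, chr17:48550313-48550342, plus strand: atcctcgttcgccctttcccatcacAGgtg
HOXB-AS1 site in HOXB3, chr17:48550997-48551026, plus strand: gcggttaaaatggaactccttctccAGctc
HOXB3 site in HOXB-AS1, chr17:48551176-48551205, minus strand: cccacccctccccctcggatccagcAGagg
HOXB3 site in HOXB-AS1, chr17:48551179-48551208, minus strand: cttcccacccctccccctcggatccAGcag
HOXA10-AS site in HOXA10, chr7:27171281-27171310, plus strand: tactttctttctcactttttaaatcAGcca
AC004080.2 site in HOXA11-AS, chr7:27186821-27186850, minus strand: tttacatatttttttattttccttcAGcaa
HOXB-AS3 site in HOXB6, chr17:48603900-48603929, plus strand: taaattgtcttttctgtgtttctctAGccg
HAGLR site in HOXD3, chr2:176164107-176164136, minus strand: ttgtctttatctcttttttttttgtAGgct

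All 15 windows ended in AG. The 20 bases before it held between 10 and 18 pyrimidines, with a median of 15. The 3 windows printed for HOXB3 held 15, 16 and 12 in that order and the 2 overlapping windows in HOXB-AS1 held 15 and 16, while those in HOXD3 and HOXB6 held 18 and 17. The lowest value, 10, was that of the window in HOXC9, which held 2 and 2 counts. Of the 9 genes with such a window, 4 met the minimum, namely HOXB3, HOXB-AS1, HOXA-AS3 and HOXA-AS2, against 11 of the 46 genes without one. The minimum was met by 49.8% of all genes with such a window and by 12.4% of all genes without. Pooled density was 11.6 CPM per kb ± 0.0629 for the 9 genes and 4.42 ± 0.248 for the 46 (SD, n = 2 each). Over all genes it was 22.9 CPM per kb ± 0.471 with such a window and 4.12 ± 0.0587 without (SD, n = 2 each). Of the 406 and 541 counts of the 9 genes, HOXB3 held 209 and 318 and HOXB-AS1 held 143 and 160.

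For the other leading genes the nearest opposite-strand 3' splice site lay outside the exons, 131 bases away for HOXB2, 185 for HOXA11 and 259 for HOXA10-AS. Genes with 2 sites in their exons included HOXA11-AS, with 3 and 8 counts, and HOXA-AS2, with 15 and 18. Far from the nearest site, HOXB4 (15928 bases) held 10 and 20 counts and HOXC4 (17663 bases) held 0 and 1. These genes were picked as examples after their values were seen, and a relation between counts and distance was not tested. The table gives 1 number per gene, so where within a gene the reads lay was not measured, and the strand of the RNA that was bound was not tested.

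**Figure D4:**
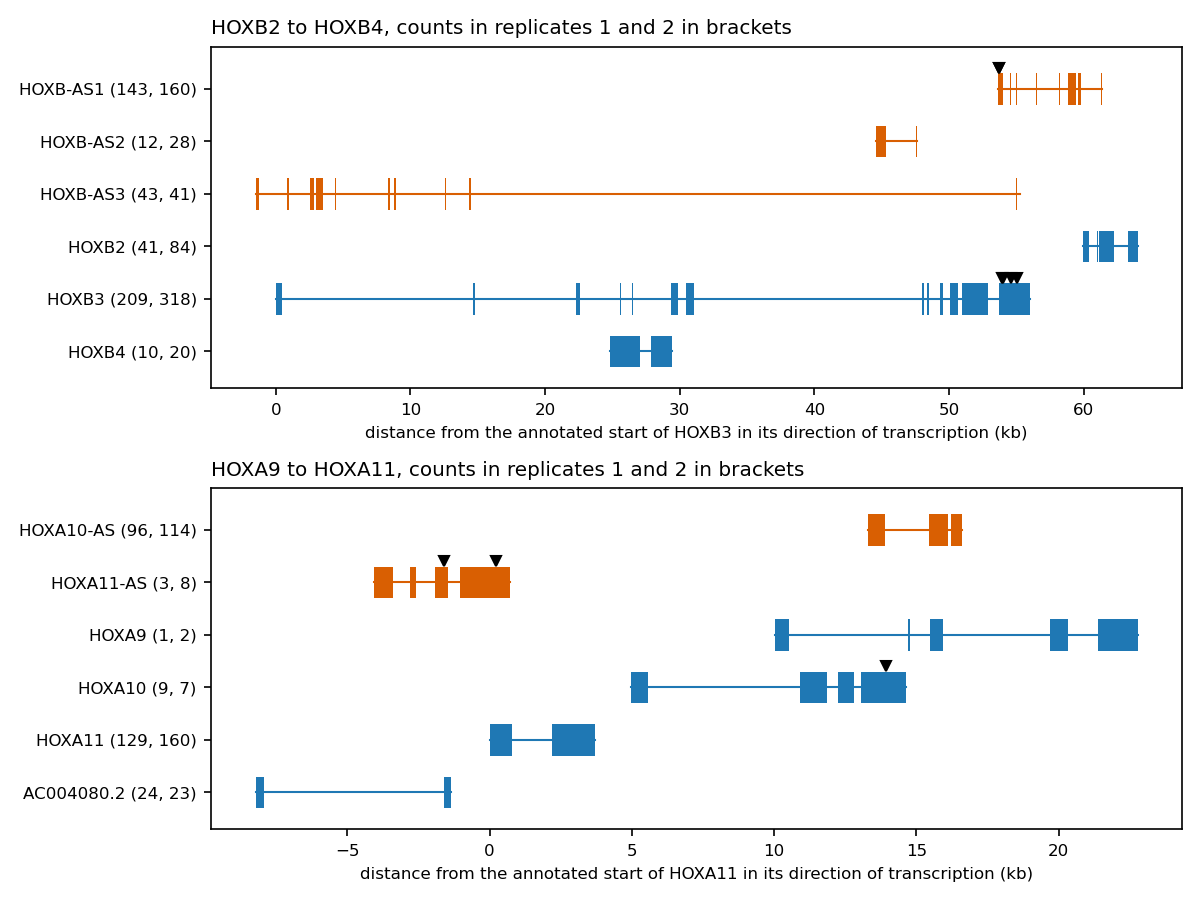
Gene models of the HOXB2 to HOXB4 and HOXA9 to HOXA11 loci (horizontal axes, distance in kb from the annotated start of HOXB3 or HOXA11 in its direction of transcription), boxes for merged exons, orange for plus-strand and blue for minus-strand genes. Triangles mark opposite-strand 3' splice sites whose whole window lies inside an exon, and brackets give counts in replicates 1 and 2. A HOXA10-AS site with only its last intronic base known to lie in a HOXA9 exon has no triangle. HOXB3 and HOXB-AS1 carry sites of each other at the 3' end of HOXB3, while HOXA11 and HOXA10-AS carry none.

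The replicates were compared gene by gene by a conditional binomial test, exact and two-sided, over every gene that met the minimum. None of the 15 HOX genes tested was called after Benjamini-Hochberg adjustment at 0.05, beside 0.501% of all 8983 genes, and 1 had an unadjusted p below 0.05, beside 8.56% of all genes. That gene was HOXB2, higher in replicate 2, with a log2 ratio of replicate 1 over replicate 2 of -0.62, an exact p of 0.0236 and an adjusted p of 0.464. The count was also 0 of 15 with DESeq2 size factors, beside 0.545% of all genes, with unscaled totals, beside 0.534%, and with an edgeR exact test with a common dispersion, beside 0.1%. With no minimum it was 0 of 49, beside 0.231% of all genes with a count. HOXD-AS2 and HOXB-AS2 differed more in ratio, with log2 ratios of -0.85 and -0.79, on 11 and 27 and on 12 and 28 counts, and their adjusted exact p values were 0.714 and 0.724. HOXB3, HOXB-AS1, HOXA11 and HOXA10-AS had log2 ratios between -0.20 and 0.24. These tests set 2 libraries of the same kind of cell against each other. The binomial p-values reflect counting error alone, while the edgeR exact test also took in a common dispersion estimated from the same 2 libraries.

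**Figure D5:**
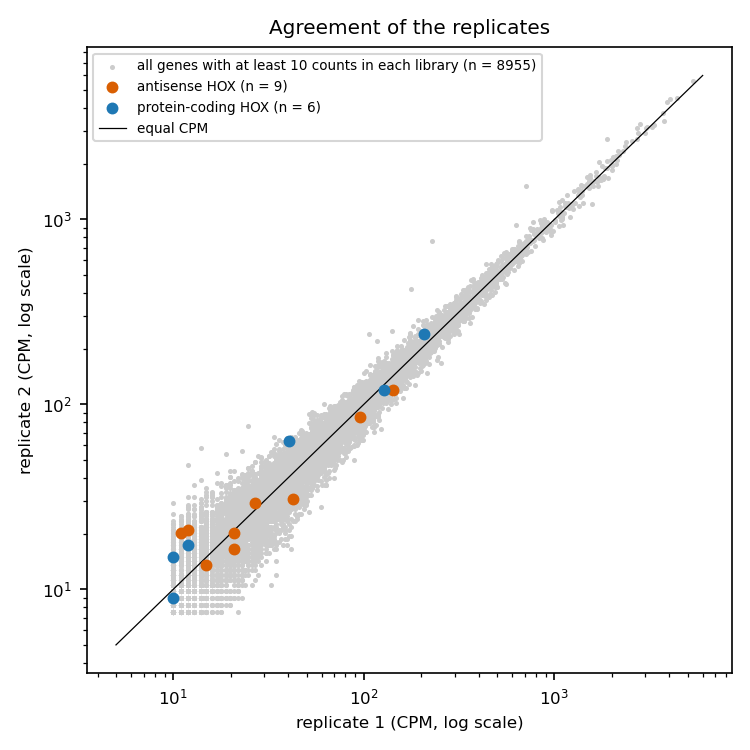
CPM in replicate 1 (horizontal axis, log scale) and replicate 2 (vertical axis, log scale) for the 9 antisense and 6 protein-coding HOX genes that met the minimum, over all genes with a model that met it too (grey). The line marks equal CPM, and HOXB3, HOXB-AS1, HOXA11 and HOXA10-AS lie close to it.

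Other genes inside the clusters held few counts. Of 50 such genes 37 held 0 counts in both libraries, and 1 reached the minimum, the non-coding RNA AC004080.2 between HOXA11 and HOXA13, with 24 and 23 counts (20.5 CPM ± 4.63, SD, n = 2). Of all genes with a model, 15.4% reached the minimum. Among those without an opposite-strand 3' splice site window in their exons, 26730 of 53275 held 0 in both libraries. With such a window it was 650 of 4764. Of the 8 microRNA genes in the clusters 6 held 0. MIR615 held 1 and 0 counts, and MIR3185 held 5 and 4 on 68 exonic bases, or 58.5 CPM per kb ± 20.4 (SD, n = 2). HAGLR, an RNA of the antisense class opposite HOXD3, held 2 and 1 counts.

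Genes that work with or upstream of HOX proteins were described from a list of 34. The minimum was met by 7 of them, or 20.6%, beside 24.8% of all protein-coding genes, and their median level was 4.23 CPM ± 0.377, beside 2.12 CPM ± 0.188 for all protein-coding genes (SD, n = 2 each). PSIP1, which tethers the MLL complex to chromatin, held 640 and 912 counts, at 659 CPM ± 34.9 (SD, n = 2), and lies opposite SNAPC3. MEIS2, a TALE homeodomain partner of HOX proteins, held 179 and 211 counts. DOT1L, the H3K79 methyltransferase recruited to HOXA genes in MLL leukaemia, held 60 and 82. The 3 lie opposite other genes over 22.4%, 7.20% and 30.3% of their exonic bases. Of the others at the minimum, ASH2L does so over 5.72%, and PBX2, TGIF2 and TGIF1 have no opposite-strand gene over their exons. Among the 11 TALE partners, MEIS1 held 2 and 6 counts and PBX2 held 25 and 34. KMT2A, the MLL gene itself, held 4 and 12, and the upstream regulators CDX1 and CDX4 held 0.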

How the data were processed

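Cutadapt, STAR 2.7.0f and the build GRCh38.p10 are named, per the submitters' processing notes. The authors deposited whole-number read counts per gene for 2 libraries. The counting tool, annotation release, strand setting and treatment of duplicates are not given in the sources used here. Tallies of reads outside genes were left out of the library totals. Of 58347 genes, 99.5% matched GENCODE 29 by identifier, which gave symbols, merged exons and strand overlaps (numpy 2.4.6, pandas 2.3.3). Counts were scaled by TMM in edgeR 4.0.16 (R 4.3.3), with DESeq2 1.42.0 size factors as an alternative. Factors were 1.01 and 0.987. Genes named by rule were every antisense member, every member at the minimum, genes overlapping them, other cluster genes at the minimum and the 3 highest cofactors. Other genes were named after their values were seen. The binomial test, Benjamini-Hochberg adjusted over all genes, was tested on simulated data. With 1 group, the edgeR quasi-likelihood test had no contrast. A few genes and sequences are not reported here. The members and lists were chosen with earlier results of these data known. The splice site windows were added after the data were seen.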

Additional observations from a re-analysis of the deposited data

How the results depend on the processing

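Scaling by DESeq2 size factors or by unscaled totals kept the cluster, position, antisense and cofactor values within 1 SD of the replicates, and moved no level of the 22 named members beyond its SD. Per kb of gene span, densities were 2.53 for HOXB, 1.67 for HOXA, 0.472 for HOXC and 0.465 CPM per kb for HOXD, and 1.55, 0.167 and 1.62 for paralogue groups 1 to 4, 5 to 8 and 9 to 13, so the outer groups changed order, and the antisense over protein-coding ratio was 1.75. Over members with at least 10 counts in each library, densities were 26.4 (HOXB), 14.8 (HOXA), 9.12 (HOXC) and 6.17 (HOXD), and 18.9, 3.60 and 53.7 for the position groups, whose outer groups changed order here too, the ratio turned to 0.750 and the cofactor median was 29.9 CPM. Fewer genes enter those values by construction. Over members with no opposite-strand gene, densities were 1.07 (HOXB), 5.93 (HOXA), 0.128 (HOXC) and 0.241 (HOXD), and 1.68, 0.261 and 0.716 for the position groups, and no ratio could be had, since every antisense member has such a gene. Over exon bases not shared on the same strand, chosen after seeing the data, densities were 5.93 for HOXA, 2.16 for HOXC and 2.27 for HOXD, and 10.2 and 3.74 for groups 1 to 4 and 9 to 13. A minimum of 1 count in each library left 31 members and a minimum of 20 left 9. Leaving out a replicate gave ratios of 1.99 to 2.40 and 15 to 16 members with at least 10 counts. The call of 0 members between replicates held under all 4 other tests and scalings. No paired analysis was possible because the samples form 1 group. Depth limits every member under 10 counts.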
